A study of Mus musculus with 6 samples.

Results

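The genes that fill, guard and stock the calcium store of muscle were examined in C2C12 cells, mouse myoblasts kept as a line, which form myotubes once serum is lowered. They are 9 genes, taken by name from the 23231 genes with a count in any library: the sarcoplasmic/endoplasmic reticulum calcium ATPases (SERCA pumps) *Atp2a1*, *Atp2a2* and *Atp2a3*, the pump inhibitors *Sln* and *Pln*, and the luminal proteins *Casq1*, *Casq2*, *Srl* and *Hrc*. Both groups stably expressed dCas9-KRAB, a nuclease-dead Cas9 joined to a repressor domain, from a lentivirus used at an MOI of 100, and were selected with 2 μg/ml puromycin. The dCas9-KRAB group (3 libraries) carried no guide to an enhancer, and the dCas9-KRAB-En5 group (3 libraries) carried guides to Myog-En5, an enhancer of the myogenic factor gene *Myog*. Polyadenylated RNA was sequenced after 5 days in 2% horse serum. The cells are selected populations of a single line, and the labels do not say that the libraries of a group came from separate cultures, so p-values measure the spread between these libraries, which may be technical.

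In a resting muscle cell, SERCA pumps in the membrane of the sarcoplasmic reticulum move calcium out of the cytosol into the lumen, and calsequestrins hold it there at high capacity until it is released for contraction. *Atp2a1* encodes SERCA1, the pump of fast skeletal fibers. *Atp2a2* encodes SERCA2, whose splice forms serve slow and cardiac muscle and nearly every other cell, and *Atp2a3* encodes SERCA3, best known from blood cells, endothelium and some epithelia. Sarcolipin (*Sln*) and phospholamban (*Pln*) are small membrane proteins that lower pump activity.

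The libraries held between 31831093 and 73988425 counts, with a median of 66910018 in the dCas9-KRAB group and 35388411 in the dCas9-KRAB-En5 group. dCas9-KRAB-En5 replicate 3 stood apart: it listed 13991 genes, against 17084 to 19395 in the other libraries, and ribosomal protein genes took 25.8% of its counts, against 10.8% to 19.4%. The 19.4% was in dCas9-KRAB replicate 1. Mitochondrial genes took 2.57% of the counts in that library and 2.33% in dCas9-KRAB-En5 replicate 3, against 0.696% to 1.15% in the rest. *Myog*, the gene whose enhancer was targeted, was at 1065 to 1224 TPM (counts per unit of gene length, scaled to sum to 1000000 in each library) in dCas9-KRAB cells and at 0 to 0.379 TPM in dCas9-KRAB-En5 cells, the order that the labels imply. Of 12 myotube markers, 11 were called lower in dCas9-KRAB-En5 cells by the cutoffs given below, as were 4.67% of all genes tested. All 12 were lower in every dCas9-KRAB-En5 library than in any dCas9-KRAB library, as were 19.7% of the genes tested. Among them, *Myog*, *Mymk*, *Mymx*, *Myh8*, *Ckm*, *Tnnt3*, *Ttn* and *Neb* passed the low-count filter only with the dCas9-KRAB libraries. Those genes could therefore only have been tested by being high there. The summed TPM of the list ranged from 14361 to 17382 in dCas9-KRAB libraries and from 11.4 to 19.8 in dCas9-KRAB-En5 libraries. *Mylpf* was the most abundant in dCas9-KRAB cells. All 12 macrophage markers were listed in these cultures labeled as myoblasts, with *Tyrobp* the most abundant. In bulk RNA, fewer muscle cells and less of a transcript per muscle cell cannot be told apart.

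The members did not all change alike. In dCas9-KRAB-En5 cells the skeletal muscle pump gene *Atp2a1* and all 4 luminal protein genes were lower, whereas the mean levels of *Atp2a2* and *Atp2a3* were higher without passing the cutoff. *Sln* was close to the limit of detection, and *Pln* had no count in any library. Of the 9 genes, 7 passed the low-count filter of edgeR. Called means an adjusted p no larger than 0.01 with a log2 fold change of 1 or more in either direction. By edgeR's quasi-likelihood test 5 members were called lower and 0 higher, in a table where 4.67% of 14378 genes were called lower and 1.52% higher. At an unadjusted p under 0.05, 1 member (*Atp2a2*) was higher, as were 16.6% of all genes tested, and DESeq2 also called that one higher, in a test that called 6.77% of genes higher and 9.47% lower. *Atp2a1*, *Casq1* and *Casq2* passed the filter through dCas9-KRAB libraries alone, so they could only have been tested by being high there. All libraries of dCas9-KRAB-En5 lay below all of dCas9-KRAB for the 5 members called lower, as they did for 19.7% of the genes tested. They did so for *Sln* too, which was not among the genes tested and had 6 to 14 counts in dCas9-KRAB libraries. No member lay above in all libraries, as 7.76% of the genes tested did. The replicate number was also fitted as a block, since same-numbered libraries deviated together, and 5 members were again lower and 0 higher, against 6.79% and 3.94% of all genes. Without dCas9-KRAB replicate 1, 4 were lower and 0 higher, against 1.43% and 0.0397% of all genes.

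**Figure D1:**
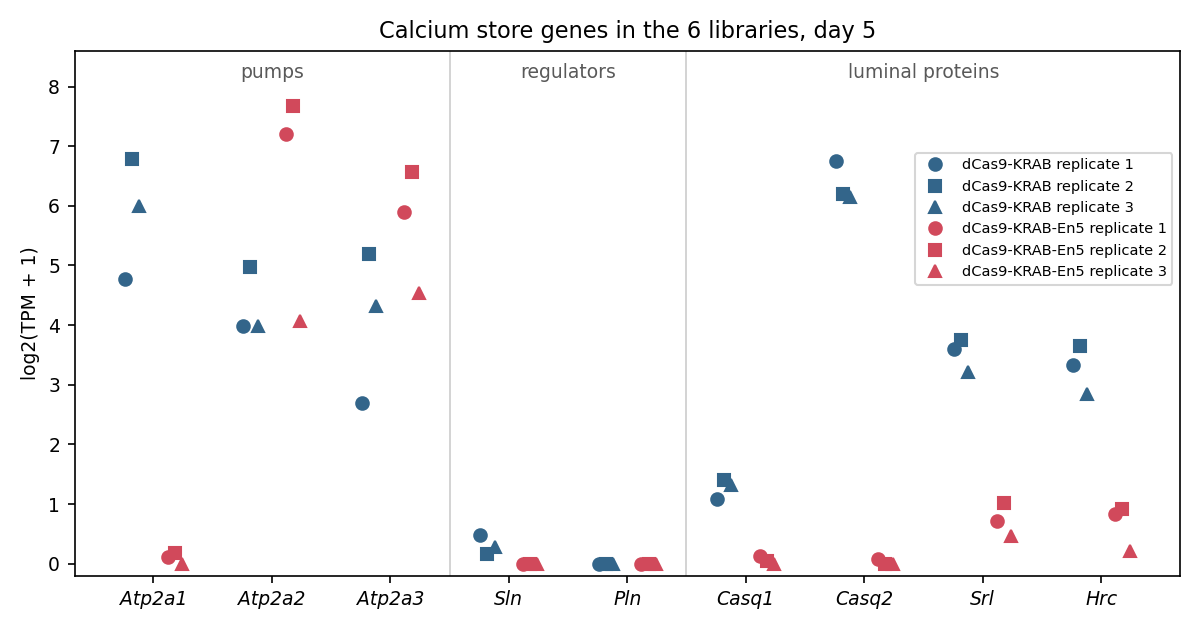
Level of each of the 9 genes in each library, as log2(TPM + 1), with dCas9-KRAB in blue and dCas9-KRAB-En5 in red and a symbol for each replicate number. *Atp2a1* and the luminal protein genes are at or near 0 in the red symbols or well below the blue ones, and the red triangle (dCas9-KRAB-En5 replicate 3) lies among the blue symbols for *Atp2a2* and *Atp2a3*.

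*Atp2a1* (ENSMUSG00000030730) is a minus strand gene of chromosome 7 (126445858 to 126463108 in GRCm38), with 23 exons after transcripts are merged. The dCas9-KRAB libraries had 2484, 14190 and 9807 counts in the order of their replicate numbers, and the dCas9-KRAB-En5 libraries 6, 8 and 0. In TPM these were 26.3, 109 and 63.0 against 0.0814, 0.136 and 0. The dCas9-KRAB libraries differed from each other by more than the luminal protein genes did, with replicate 1 lowest, yet the 2 groups were far apart. The log2 fold change was -10.17 (SE 0.92, adjusted p = 4.46e-05 from edgeR), and the summed CPM (counts scaled to a library of 1000000) were 1122-fold lower in dCas9-KRAB-En5 cells (exact 95% interval 668 to 2052, which covers counting error only). The gene shares 763 exonic bases with *Rabep2* on the opposite strand, and the kit and counting are not stated to keep strands apart. *Rabep2* had 427 to 2391 counts across the 6 libraries, while *Atp2a1* fell to at most 8. Only 0.115% of the 50-base words of its transcripts recur in another gene, *Atp2a3*.

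*Atp2a2* (ENSMUSG00000029467) lies on chromosome 5 from 122453513 to 122502225 on the minus strand. It was at 14.9, 30.4 and 14.9 TPM in dCas9-KRAB cells and at 147, 203 and 15.7 TPM in dCas9-KRAB-En5 cells. Both dCas9-KRAB-En5 replicates 1 and 2 were above every dCas9-KRAB library, and replicate 3 was within the dCas9-KRAB range. With all libraries the log2 fold change of 2.17 (SE 0.62) was not past the cutoff (adjusted p = 0.0332 from edgeR), nor was that of 1.92 with replicates blocked by number (adjusted p = 0.0169 from edgeR). It was called higher without dCas9-KRAB-En5 replicate 3, with a log2 fold change of 2.52 (adjusted p = 0.00066 from edgeR), in a fit where 11.7% of genes were called higher, and by DESeq2 (2.07, adjusted p = 0.0031). Of its 50-base words, 3.31% recur in another gene, *Gm30970*. Counts per gene do not separate the muscle and general splice forms of SERCA2.

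*Atp2a3* (ENSMUSG00000020788) lies on chromosome 11 from 72961169 to 72993044 on the plus strand. Its levels were 5.46, 35.5 and 19.1 TPM in dCas9-KRAB cells and 58.3, 93.8 and 22.1 TPM in dCas9-KRAB-En5 cells. The highest dCas9-KRAB library was above the lowest dCas9-KRAB-En5 library, again replicate 3. The log2 fold change of 1.26 (SE 0.59) was not past the cutoff with edgeR (adjusted p = 0.157), with the replicate block (1.51, adjusted p = 0.0483) or without dCas9-KRAB-En5 replicate 3 (1.34, adjusted p = 0.0806). Because SERCA3 is a pump of blood cells, markers of such cells are given beside it. The summed TPM of the 12 macrophage markers was 4219 to 4866 in dCas9-KRAB libraries and 5682 to 8887 in dCas9-KRAB-En5 libraries, and none was at 0. Of the 12, 1 (*Adgre1*, log2 fold change 2.68) was called higher by edgeR and 2 by DESeq2, against 1.52% and 6.77% of all genes. Gene by gene, 2 of the 12 lay above in all dCas9-KRAB-En5 libraries and 1 below, as 7.76% and 19.7% of the genes tested did. The list did not move as one, with 9 fold changes above 0 and 3 below, among them *Mpeg1* (-1.10, adjusted p = 0.124 from edgeR), named after its values were seen. The 12 lymphocyte markers summed to 7.51 to 8.48 TPM and 3.39 to 5.50 TPM, most of it *Lck*. Of the 2 tested, 1 (*Pax5*) was called lower, as were 4.67% of all genes tested. *Pax5* had no count in any dCas9-KRAB-En5 library, so it could only have been tested by being high in dCas9-KRAB libraries. *Cd3e*, *Cd3g*, *Cd8a*, *Cd2* and *Ms4a1* were among the lymphocyte markers at 0 in all libraries. The 10 platelet markers summed to 1.25 to 3.24 TPM and 3.42 to 6.96 TPM, with *Itgb3* the most abundant by the mean over dCas9-KRAB-En5 libraries and *Gp1bb* and *Gp6* among those at 0. None of the 4 tested was past an unadjusted p of 0.05 in edgeR or called by DESeq2. The part of macrophage-type transcripts in the *Atp2a3* and *Atp2a2* levels was not tested.

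The pump transcripts can be compared as shares, since TPM is per length. *Atp2a1* made up 56.4%, 62.3% and 65.0% of the summed pump TPM in the dCas9-KRAB libraries, and 0.0397%, 0.0457% and 0% in those of dCas9-KRAB-En5. The means were 61.2% ± 4.39 and 0.0284% ± 0.0248 (SD, n = 3 per group, two-sided exact permutation test, p = 0.1, which is as small as 3 against 3 can give). The muscle isoform was thus the main pump transcript in every dCas9-KRAB library and nearly absent from every dCas9-KRAB-En5 library. *Atp2a2* went from 31.9%, 17.4% and 15.4% to 71.6%, 68.4% and 41.5%, and *Atp2a3* from 11.7%, 20.3% and 19.7% to 28.4%, 31.6% and 58.5%. Neither share overlapped between the groups (exact permutation test, two-sided, p = 0.1 for each). Shares sum to 100%, so the loss of *Atp2a1* alone raises both others. In dCas9-KRAB-En5 replicate 3 *Atp2a3* was the larger share, and in replicates 1 and 2 *Atp2a2* was.

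The summed level of pump transcripts did not separate the groups. It was 46.7, 175 and 97.0 TPM in dCas9-KRAB libraries and 205, 297 and 37.8 TPM in dCas9-KRAB-En5 libraries. The mean log2 of the sum was higher by 0.51 in dCas9-KRAB-En5 cells (exact permutation test, two-sided, p = 0.7), and by 1.42 without dCas9-KRAB-En5 replicate 3 (exact permutation test, p = 0.2). Without dCas9-KRAB-En5 replicate 2 the difference was -0.0698, and without dCas9-KRAB replicate 1 it was 0.02. The sum was thus both highest and lowest in dCas9-KRAB-En5 libraries.

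**Figure D2:**
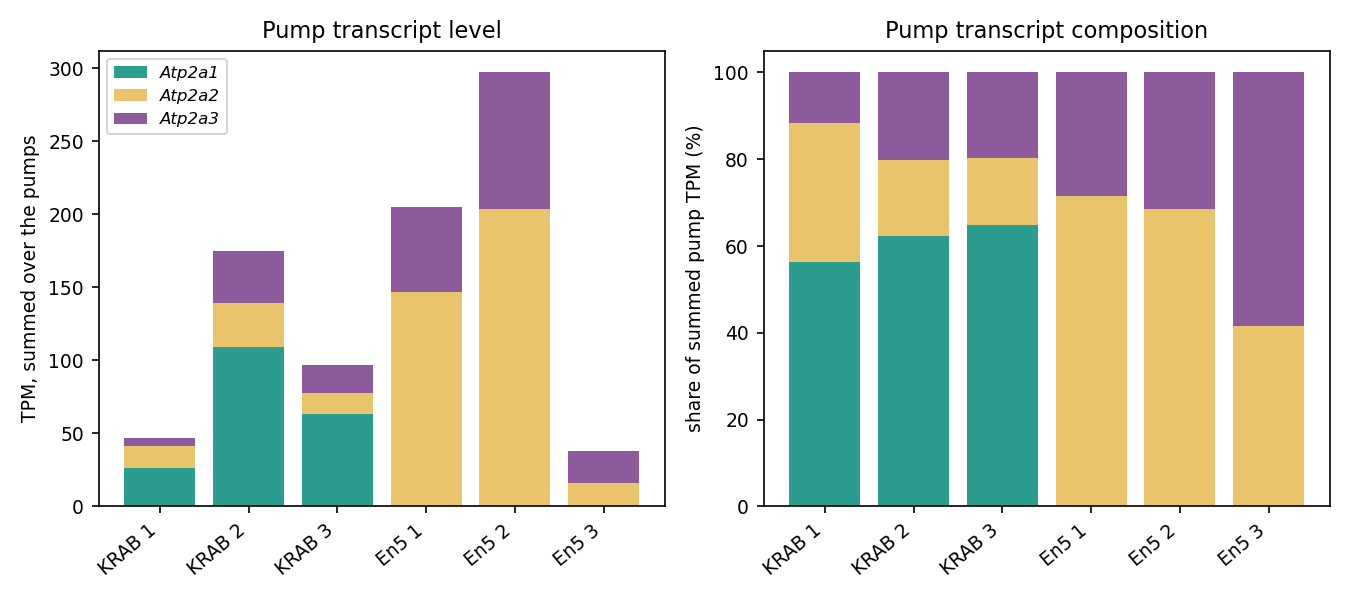
TPM of the 3 SERCA genes stacked for each library (left) and as percent of their sum (right), with KRAB for dCas9-KRAB and En5 for dCas9-KRAB-En5 and the replicate number. *Atp2a1* takes 56.4% to 65.0% of the dCas9-KRAB bars and cannot be seen in the dCas9-KRAB-En5 bars, whose height runs from 37.8 to 297 TPM.

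The promoters of *Atp2a1* and *Atp2a3* are shown because these are the pump genes with the most and the least different levels between the groups. RefSeq sequence of GRCm38.p6 upstream of the start is given 5′ to 3′ in the direction of the gene, with exonic bases left out. Capitals mark matches to the E-box CANNTG, the core bound by MyoD-family factors, which reads as CANNTG on both strands. *Atp2a1* is from chr7:126463109-126463323 (minus strand) and *Atp2a3* from chr11:72960919-72961168 (plus strand).
*Atp2a1*: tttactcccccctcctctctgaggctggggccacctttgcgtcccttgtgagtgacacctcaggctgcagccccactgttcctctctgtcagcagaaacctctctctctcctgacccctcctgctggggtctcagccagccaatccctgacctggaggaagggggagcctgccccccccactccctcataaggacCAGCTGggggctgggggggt
*Atp2a3*: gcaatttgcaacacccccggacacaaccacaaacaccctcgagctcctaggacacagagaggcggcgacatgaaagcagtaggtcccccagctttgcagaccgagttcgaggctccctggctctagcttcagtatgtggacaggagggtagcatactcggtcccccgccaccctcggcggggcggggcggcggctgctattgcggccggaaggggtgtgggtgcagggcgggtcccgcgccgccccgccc
In the 250 bases before the start, *Atp2a1* held 1 E-box, CAGCTG, at -55 to -50 relative to the RefSeq start, and the *Atp2a3* window held none. Of 32851 promoter windows of the same length, 66.2% held CANNTG and 13% held the CAGCTG form. A match is a description of the letters and not a site of binding.

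*Sln* (ENSMUSG00000042045, chromosome 9 from 53850164 to 53854560, plus strand) had 14, 6 and 13 counts in dCas9-KRAB libraries, or 0.391, 0.122 and 0.220 TPM, and none in dCas9-KRAB-En5 libraries. Sarcolipin transcripts were therefore scarce beside those of the pump they inhibit, at 0.244 ± 0.137 TPM against 66.1 ± 41.4 TPM for *Atp2a1* (SD, n = 3). The gene did not pass the low-count filter. Against a floor of 3 counts over the group, the summed CPM of dCas9-KRAB-En5 cells was at least 6.52-fold lower, and without the filter its adjusted p was 0.0929 from edgeR. *Pln* (ENSMUSG00000038583, chromosome 10 from 53337667 to 53345987, plus strand), the inhibitor paired with SERCA2 in heart and slow muscle, had 0 counts among 181452766 of the dCas9-KRAB group and 107604224 of the dCas9-KRAB-En5 group, which allows up to 0.0165 and 0.0279 CPM over the groups. Of 10 cardiomyocyte markers, *Myl7* and *Tbx20* were also at 0 in all libraries. The list summed to 579 to 662 TPM with dCas9-KRAB alone and 1.24 to 2.06 TPM with the En5 guides. With dCas9-KRAB alone nearly all of this was *Myl4*, also known from embryonic skeletal muscle, at 576 to 658 TPM, against 0 to 0.316 TPM with the En5 guides.

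*Casq2*, the calsequestrin of heart and slow fibers, had the highest mean TPM of the members in dCas9-KRAB cells, with a range that overlapped that of *Atp2a1*. Its counts (ENSMUSG00000027861, chromosome 3 from 102086415 to 102146514, plus strand) were 7885, 7380 and 8547 in dCas9-KRAB libraries and 3, 0 and 0 in dCas9-KRAB-En5 libraries. In TPM the dCas9-KRAB values were 106, 72.1 and 69.8. These libraries lay close together, and replicate 1, the lowest for *Atp2a1*, was the highest for *Casq2*. The summed CPM was 4707-fold lower in dCas9-KRAB-En5 cells (exact 95% counting interval 1610 to 22826), with an adjusted p of 1.82e-05 from edgeR.

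*Casq1*, the calsequestrin of fast fibers, was far less abundant. It lies on chromosome 1, as *Myog* does, at a distance of 37.9 Mb (ENSMUSG00000007122, 172209894 to 172219868, minus strand). There were 60, 120 and 130 counts in dCas9-KRAB libraries, or 1.13, 1.64 and 1.49 TPM, and 4, 1 and 0 counts in dCas9-KRAB-En5 libraries. The log2 fold change was -5.29 (SE 1.06, adjusted p = 0.00713 from edgeR). The call was lost without dCas9-KRAB replicate 1, 2 or 3, without dCas9-KRAB-En5 replicate 2 and with libraries scaled by total counts alone, with adjusted p up to 0.0358 from edgeR. Of the summed calsequestrin TPM, *Casq1* made up 1.06%, 2.23% and 2.09% in the dCas9-KRAB libraries, a mean of 1.79% ± 0.641 (SD, n = 3). The dCas9-KRAB-En5 libraries held 7, 1 and 0 counts over both genes, too few for a share. In dCas9-KRAB cells at day 5 the main pump transcript was thus *Atp2a1*, and the main calsequestrin transcript *Casq2*. The fiber type of these cells was not tested.

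Sarcalumenin (*Srl*), a calcium-binding glycoprotein of the lumen, and the histidine-rich calcium-binding protein (*Hrc*) fell less far than *Casq2* and were still counted in every library. *Srl* (ENSMUSG00000022519, chromosome 16 from 4480216 to 4541816, minus strand) was at 11.2, 12.5 and 8.24 TPM in dCas9-KRAB cells and at 0.647, 1.03 and 0.386 TPM in dCas9-KRAB-En5 cells. *Hrc* (ENSMUSG00000038239, chromosome 7 from 45335290 to 45338974, plus strand) was at 9.06, 11.6 and 6.20 TPM and at 0.773, 0.896 and 0.153 TPM. Both genes were lowest in replicate 3 of each group, and the groups did not overlap. The log2 fold change was -4.18 for *Srl* (SE 0.48, adjusted p = 0.000216 from edgeR) and -4.23 for *Hrc* (SE 0.59, adjusted p = 0.000828 from edgeR). In dCas9-KRAB-En5 cells these were the most abundant of the luminal protein transcripts, at 0.688 ± 0.324 and 0.607 ± 0.398 TPM (SD, n = 3), below *Atp2a2* and *Atp2a3* and above *Atp2a1*, *Casq1* and *Casq2*. With at least 10 counts required in every library, *Atp2a2*, *Atp2a3* and *Srl* were the members left, and *Srl* was called lower.

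Promoters of the luminal protein genes are shown because these genes were lower together, with capitals for CANNTG and for the consensus of MEF2, the partner of MyoD-family factors on muscle genes. No RefSeq promoter entry was used for *Srl*, *Sln* or *Atp2a2*. The sequences are from chr3:102086165-102086414 (*Casq2*, plus strand), chr1:172219896-172220145 (*Casq1*, minus strand) and chr7:45335019-45335268 (*Hrc*, plus strand).
*Casq2*: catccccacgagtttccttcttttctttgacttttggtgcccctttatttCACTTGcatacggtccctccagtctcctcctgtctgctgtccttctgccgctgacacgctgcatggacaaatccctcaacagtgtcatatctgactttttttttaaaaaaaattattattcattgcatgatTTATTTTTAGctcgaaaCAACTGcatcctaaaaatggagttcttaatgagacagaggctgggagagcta
*Casq1*: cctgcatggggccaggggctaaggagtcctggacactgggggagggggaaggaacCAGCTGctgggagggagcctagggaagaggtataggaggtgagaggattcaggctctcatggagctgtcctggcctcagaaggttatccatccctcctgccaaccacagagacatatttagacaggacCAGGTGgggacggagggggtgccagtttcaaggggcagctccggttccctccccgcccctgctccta
*Hrc*: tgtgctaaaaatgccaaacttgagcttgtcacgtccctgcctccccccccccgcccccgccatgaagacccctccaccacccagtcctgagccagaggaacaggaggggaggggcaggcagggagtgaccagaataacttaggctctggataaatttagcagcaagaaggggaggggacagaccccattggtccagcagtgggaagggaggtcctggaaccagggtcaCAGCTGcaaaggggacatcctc
*Casq2* held CACTTG at -200 to -195, CAACTG at -52 to -47 and a MEF2 match, TTATTTTTAG, at -69 to -60. *Casq1* held CAGCTG at -195 to -190 and CAGGTG at -67 to -62, and *Hrc* held CAGCTG at -22 to -17. The MEF2 consensus, searched on both strands, matched 2.92% of the 32851 windows, and it did not overlap an E-box in *Casq2*. An E-box stood in each of the promoters shown for members that were lower, a form of match that most promoters also hold. The promoter of *Pln*, which is not printed, also held an E-box, CACATG at -59 to -54, and *Pln* had no count in any library.

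**Figure D3:**
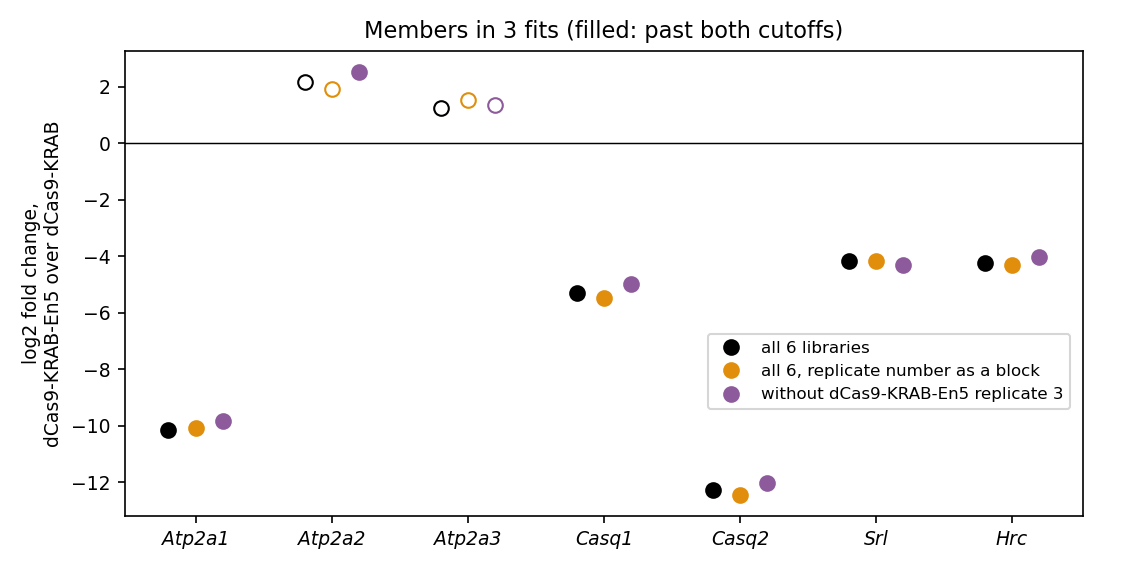
Fitted log2 fold change (dCas9-KRAB-En5 over dCas9-KRAB) of the 7 members tested, with all 6 libraries, with the replicate number as a block, and without dCas9-KRAB-En5 replicate 3, where filled points are past both cutoffs. *Atp2a1* and the 4 luminal genes are called lower in all 3 fits, *Atp2a2* is called higher only without replicate 3 (2.52), and *Atp2a3* is not called. The *Casq2* values rest on 3 counts in dCas9-KRAB-En5 cells.

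Genes with the most similar course over the 6 libraries were sought by the root mean square difference of centred log2(TPM + 1) profiles among all genes tested. For *Atp2a1* they were *Myod1* (0.181), *Scx* (0.304) and *Dmpk* (0.328). *Myod1*, a master regulator of myogenesis, was at 74.5 ± 38.6 TPM in dCas9-KRAB cells and 0.0359 ± 0.0382 TPM in dCas9-KRAB-En5 cells (SD, n = 3). For *Atp2a3* they included *Inppl1* (0.111) and *Plxnb2* (0.119). Neither was past the cutoff in edgeR, with adjusted p = 0.142 and 0.232. The profiles share depth and library, so likeness over 6 libraries is a description.

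Other genes of calcium handling were followed in 7 lists with 75 genes, of which 59 were tested. In edgeR's test 9 were lower and 1 was higher, against 4.67% lower and 1.52% higher of all genes tested. With the replicate number as a block 11 were lower and 3 higher, against 6.79% and 3.94% of all genes. Without dCas9-KRAB-En5 replicate 3 (where 14% of all genes were lower and 11.7% higher) the counts were 16 and 7. Without dCas9-KRAB replicate 1 (where 1.43% were lower and 0.0397% higher) they were 4 and 0. The median log2 fold change was -0.03 over the 59 genes and 0.08 over all genes tested.

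Release and junction genes held 7 of the 9 lower calls, among 12 tested of 15, with a median log2 fold change of -4.53. Without dCas9-KRAB replicate 1, 3 of the list were called lower (1.43% of all genes were). With at least 10 counts required in every library, 4 were (339 of all 11640 genes were). The calls with the smallest adjusted p were in *Jsrp1*, a junctional membrane protein, *Cacnb1* and *Cacna1s*, subunits of the voltage sensor of the triad. *Jsrp1* was at 296, 442 and 402 TPM in dCas9-KRAB cells and 1.74, 2.21 and 0.918 TPM in dCas9-KRAB-En5 cells (log2 fold change -8.09, SE 0.58, adjusted p = 1.82e-05 from edgeR). *Cacnb1* had a log2 fold change of -5.63 and *Cacna1s* of -9.06 (adjusted p = 9.09e-05 and 0.000113 from edgeR). In dCas9-KRAB-En5 libraries *Cacna1s* had 3, 3 and 0 counts. *Stac3*, another of the 7, had 5, 13 and 0 and is named after its values were seen. Both passed the low-count filter only with the dCas9-KRAB libraries, so they could only have been tested by being high there. The list was not uniform, as 4 of its genes were higher at an unadjusted p under 0.05 (16.6% of all genes tested were). They were the inositol trisphosphate receptor genes *Itpr1*, *Itpr2* and *Itpr3* and *Asph*, named here after their values were seen. For all 4 the groups overlapped. In dCas9-KRAB-En5 replicate 3 *Itpr1* (0.277 TPM) and *Itpr2* (0.617 TPM) lay below every dCas9-KRAB library. *Itpr3* (8.11 TPM) and *Asph* (1.48 TPM) lay within the dCas9-KRAB range there. DESeq2 called 2 genes of the list higher, as it did 6.77% of all genes. *Asph* was past both cutoffs only with the replicate block (2.19, adjusted p = 0.00921), without dCas9-KRAB-En5 replicate 3 (2.94, adjusted p = 0.000412), with DESeq2 (2.45, adjusted p = 0.000894) and without the low-count filter.

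A pair of related genes went opposite ways in the list of pump micropeptides and modulators, where 2 of 11 tested genes were lower and 1 was higher, with a median of -0.87. *Tmem38a* and *Tmem38b* encode TRIC-A and TRIC-B, cation channels of the reticulum membrane that balance charge as calcium moves, the first prominent in muscle and the second widespread. *Tmem38a* was at 154, 167 and 148 TPM in dCas9-KRAB cells and 4.23, 4.90 and 3.77 TPM in dCas9-KRAB-En5 cells (log2 fold change -5.26, SE 0.53, adjusted p = 9.7e-05 from edgeR). *Tmem38b* was at 34.8, 21.0 and 18.3 TPM and at 378, 306 and 83.6 TPM (3.02, SE 0.53, adjusted p = 0.00375 from edgeR). For both genes the groups did not overlap, also in dCas9-KRAB-En5 replicate 3. The *Tmem38b* call was lost without dCas9-KRAB replicate 1, 2 or 3, with adjusted p up to 0.0421 from edgeR. *Camk2b*, a calcium/calmodulin-dependent kinase, was the other lower call (-5.32, adjusted p = 0.00991 from edgeR) and was lost in 8 of 14 alternatives. It had 0, 2 and 9 counts in dCas9-KRAB-En5 libraries, so it too passed the low-count filter only with the dCas9-KRAB libraries. *Strit1*, which encodes the SERCA activator DWORF, was at 0 in all libraries, and myoregulin (*Mrln*), a further inhibitor, had 56, 27 and 34 counts in the dCas9-KRAB group and 2, 2 and 0 in the dCas9-KRAB-En5 group (log2 fold change -4.38, adjusted p = 0.0281 from edgeR and 0.00519 from DESeq2). *Mrln* likewise passed the low-count filter only with the dCas9-KRAB libraries, so it could only have been tested by being high there.

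The other 5 lists, of luminal calcium binding proteins of the endoplasmic reticulum, other calcium pumps and exchangers, store-operated entry, mitochondrial uptake and cytosolic buffers, had 0 calls among 36 genes tested with edgeR. At an unadjusted p under 0.05, 6 of them were lower and 6 higher, against 16.3% and 16.6% of all genes tested. DESeq2 called 1 lower and 1 higher, against 9.47% and 6.77% of all genes. With the replicate block 2 were lower and 1 was higher, against 6.79% and 3.94% of all genes. Without dCas9-KRAB-En5 replicate 3 the counts were 4 and 3, against 14% and 11.7%. Their median log2 fold changes were 0.31, 1.86, 0.48, -0.68 and -0.25 in that order. Calreticulin (*Calr*), the main calcium-binding protein of the general endoplasmic reticulum, was at 148, 315 and 227 TPM in dCas9-KRAB cells and 374, 627 and 152 TPM in dCas9-KRAB-En5 cells, and was named after its values were seen. Its groups overlapped, and the log2 fold change of 0.44 (SE 0.47) was not past the cutoff (adjusted p = 0.555 from edgeR). Its mean TPM was above that of *Casq2* in both groups.

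**Figure D4:**
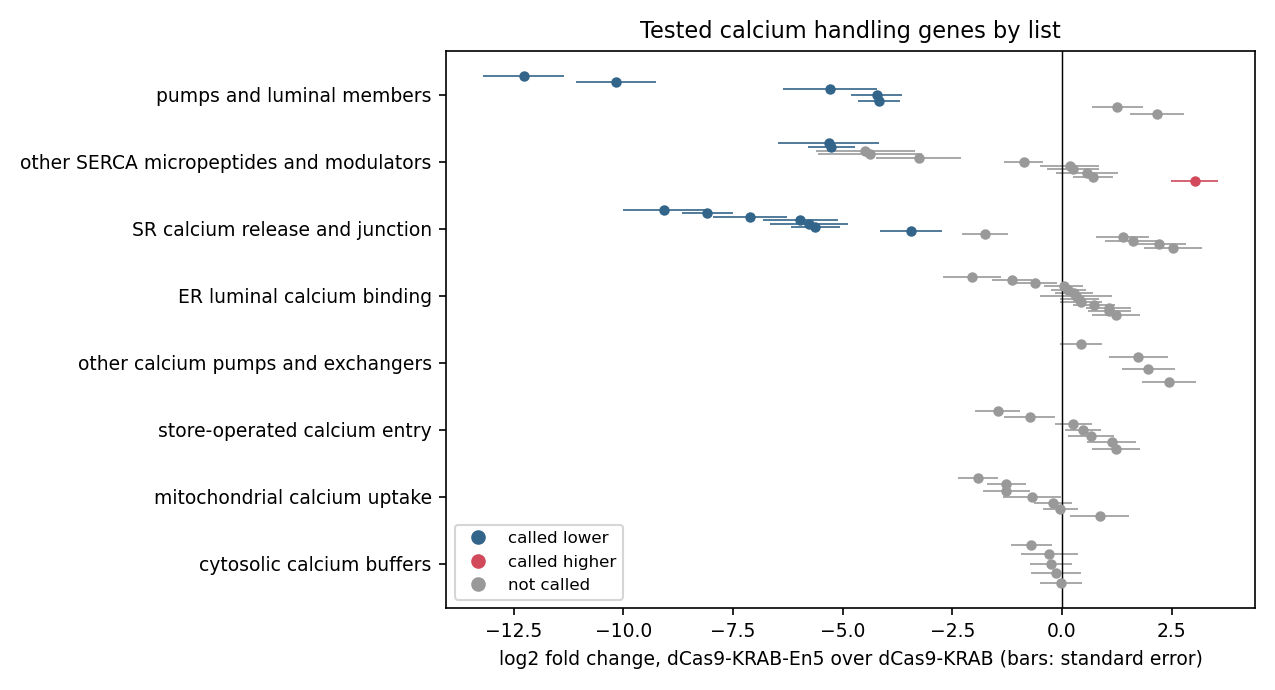
Log2 fold change of the tested genes by list, dCas9-KRAB-En5 over dCas9-KRAB, with standard errors as bars, lower calls in blue, a higher call in red and others in grey. Lower calls lie among the members (5), the release and junction genes (7) and the pump micropeptides and modulators (2), and the red point is *Tmem38b* at 3.02.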

How the data were processed

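RNA-Seq of C2C12 cells on day 5 of differentiation comprised 3 libraries of dCas9-KRAB and 3 of dCas9-KRAB-En5 cells, grouped and numbered by their labels. The authors aligned reads to GRCm38 with HISAT2 2.2.1 (submitters' processing notes), used featureCounts for the number of reads per gene, and deposited these raw counts. The authors also deposited TPM. Annotation release and strand setting are not given in the sources used here. Genes not listed were taken as 0. Of 23231 genes, 23155 were matched to a symbol (GENCODE M21), and coordinates and merged exons are from that annotation.

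Counts were compared with edgeR 4.0.16 in R 4.3.3 (TMM normalization, filterByExpr with minimum count 10 and minimum total 15, quasi-likelihood test, group alone in the model, Benjamini-Hochberg adjustment over all genes tested). The script was tested on simulated data. The standard error of a fold change is its size over the square root of F. Pump shares were compared with exact permutation tests over the 6 libraries. Folds against 0 counts used a floor of 3 counts over the group. Intervals are exact and cover counting error only. Alternatives were DESeq2 1.42.0, limma-trend 3.58.1 on log2(TPM + 1) and log2(TPM + 0.1), other normalizations, filters and cutoffs, the replicate block and leaving out each library. Settings for genes at few counts were added after the data were seen.

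Deviations from the group mean were correlated between same-numbered libraries (r across genes 0.262, 0.214 and 0.29 for replicates 1 to 3, against -0.34 to -0.0508 for other pairs), so the blocked fit is given where it changes a call. All 9 members were named. Other genes were named by rule: up to 3 calls per list and direction with the smallest adjusted p, the 3 genes most like *Atp2a1* and *Atp2a3*, and the most abundant and absent markers. Exceptions are stated, and a few genes that this rule selects are not reported here. The members and lists were chosen with earlier results of these data known. Promoters are the 250 bases before RefSeq starts (GRCm38.p6), found for 6 of the 9 members.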

Additional observations from a re-analysis of the deposited data

How the results depend on the processing

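With dCas9-KRAB-En5 libraries of 31831093 to 40384720 counts, depth limits *Sln*, *Casq1* and *Casq2*, whose dCas9-KRAB-En5 levels rest on 5 or fewer counts over the group. No member changed direction under any alternative, and the calls of *Atp2a1*, *Casq2* and *Srl* were kept in every fit that included them. *Hrc* was not past the cutoff with limma-trend on log2(TPM + 1) (adjusted p = 0.0112). *Casq1* was not past it in 5 of 14 alternatives, with adjusted p up to 0.0358 from edgeR. These were total counts, leaving out dCas9-KRAB replicate 1, 2 or 3, and leaving out dCas9-KRAB-En5 replicate 2. The replicate block changed no member's call.

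Members called lower numbered 5, and 4 to 5 with each library left out. With at least 10 counts in every library, the 3 members left were *Atp2a2*, *Atp2a3* and *Srl*, and 1 (*Srl*) was called lower. Members called higher numbered 0, and 1 (*Atp2a2*) without the low-count filter, with DESeq2 or at an adjusted p of 0.05, and 0 to 1 with each library left out. Other calcium handling genes called lower numbered 9, 5 with at least 10 counts in every library, 14 at an adjusted p of 0.05, and 4 (without dCas9-KRAB replicate 1) to 16 (without dCas9-KRAB-En5 replicate 3) with each library left out. Those called higher numbered 1, 4 without the filter or with DESeq2, 3 with the replicate block, 5 at an adjusted p of 0.05, and 0 (without dCas9-KRAB replicate 1, 2 or 3) to 7 (without dCas9-KRAB-En5 replicate 3). Over all genes, 671 were lower, 1194 without the filter, 339 with at least 10 counts in every library, 1362 with DESeq2, 1380 at an adjusted p of 0.05, and 216 to 2134 with each library left out, at the extremes without dCas9-KRAB replicate 1 and without dCas9-KRAB-En5 replicate 3. In all, 219 were higher, 70 with total counts, 1004 without the filter, 974 with DESeq2, 32 and 66 with limma-trend on log2(TPM + 1) and log2(TPM + 0.1), 567 with the replicate block, 1069 at an adjusted p of 0.05, and 6 to 1787 with each library left out, by the same libraries. The median log2 fold change of all genes ran from -0.05 to 0.18 over the settings.

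The difference in the *Atp2a1* share of pump TPM, -61.2 percentage points, was -49.1 from counts and -63.6 to -59.3 with each library left out, and that of *Atp2a3*, 22.2, was 15.3 and 12.7 to 27.8. The difference in log2 summed pump TPM, 0.51, was 0.81 from counts and -0.0698 (reversed, without dCas9-KRAB-En5 replicate 2) to 1.42. Over same-numbered pairs, the exact sign-flip p for these was 0.25, 0.25 and 0.75, where 3 pairs allow no smaller p than 0.25. The *Casq1* share of calsequestrin TPM in dCas9-KRAB cells, 1.79%, was 1.28% from counts and 1.57% to 2.16% with each library left out. The causes were not tested.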
